A study of Mus musculus with 2 samples.

Results

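The 9 genes described here belong to the circadian clock: Arntl, Nr1d1, Nr1d2, Dbp, Tef, Per1, Per2, Per3 and Ciart. They were taken by symbol from the 32285 gene features of a Visium spatial transcriptomics series on mouse lung, and all 9 had counts in both sections. The series holds 1 section of a metastatic lung and 1 section of a control lung, both fresh-frozen and processed on the Visium platform, in which barcoded spots on a slide capture the RNA of the tissue above them. The metastatic lung came from a female Balb/c mouse inoculated at 6 to 8 weeks of age with 1000000 4T1 cells, placed into a mammary fat pad, and euthanized after 21 to 23 days. 4T1 is a mouse mammary tumour line that seeds the lung from the fat pad. The control lung came from a mouse without tumour or treatment, whose age was not given separately. The time of day at which either lung was taken is not given in the sources used here. Collection time, animal, library and tumour therefore cannot be told apart in any difference between the sections.

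The circadian clock is a feedback loop of transcription present in nearly every cell. ARNTL (also called BMAL1) pairs with CLOCK or NPAS2, binds E-boxes and switches on the Per and Cry genes, Nr1d1, Nr1d2, Dbp, Tef and Ciart. PER and CRY proteins then inhibit that pair, NR1D1 and NR1D2 (REV-ERB alpha and beta) repress Arntl through ROR elements, and DBP and TEF activate genes through D-boxes. Arntl transcripts thus peak about opposite to those of Nr1d1, Dbp and Per. In mouse tissues Nr1d1 and Dbp come first within the light phase, Per1, Per3, Tef, Nr1d2 and Ciart towards its end, Per2 somewhat later and Cry1 later still, in the night. In lung the airway epithelium carries a strong clock, and lung function and inflammation vary with the time of day. The 8 members other than Arntl are called output genes below.

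The promoters of the members show the letters through which the loop is known to act. RefSeq windows on GRCm38.p6, from 250 bases before to 50 bases after each start, were held for 8 of the 9 members, and Per2 had no entry. For Ciart, Per1, Nr1d1, Per3 and Arntl, a stretch with the motif is printed 5′ to 3′ on the strand of the gene, with the motif in capitals. Ciart carried 3 copies of the E-box CACGTG within 156 bases. Per1 had 1 E-box, in 1 of 2 windows, and Tef had 1 in each of 2 windows. Nr1d1 had 1 copy of the E-box variant CACGTT, read from the opposite strand. Per3 had the D-box TTATGTAA 2 times, and in 1 of 2 windows of Arntl the ROR element TAGGTCA began 30 bases after the start.
Ciart, chr3:95882229-95882384, minus strand: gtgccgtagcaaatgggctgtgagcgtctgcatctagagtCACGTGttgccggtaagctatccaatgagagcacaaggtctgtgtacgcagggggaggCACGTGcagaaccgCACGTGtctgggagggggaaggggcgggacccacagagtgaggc
Per1, chr11:69098743-69098828, plus strand: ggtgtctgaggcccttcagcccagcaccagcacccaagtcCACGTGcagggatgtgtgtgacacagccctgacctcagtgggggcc
Nr1d1, chr11:98775378-98775445, minus strand: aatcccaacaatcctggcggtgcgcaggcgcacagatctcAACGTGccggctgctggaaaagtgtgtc
Per3, chr4:151044776-151044910, minus strand: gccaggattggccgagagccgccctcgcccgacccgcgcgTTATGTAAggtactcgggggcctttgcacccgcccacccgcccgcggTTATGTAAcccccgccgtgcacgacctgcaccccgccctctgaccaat
Arntl, chr7:113207531-113207557, plus strand: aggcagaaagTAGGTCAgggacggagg
Over all 32851 windows of the table, with both strands searched, 7.15% held CACGTG, 4.68% CACGTT, 2.61% TAGGTCA and 0.938% TTATGTAA. The windows of Dbp and Nr1d2 held none of the 4, which says only that these letters are not in them.

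The control section had 1888 spots with 20329126 counts (median 9643.5 per spot), and the metastatic section 1110 spots with 14657881 counts (median 11334.5). Each spot covers several cells, and spots are not replicates. With 1 section per condition no test was possible, so levels are pooled counts per 10000 (CP10k) with exact 95% Poisson intervals, and each ratio has an exact binomial interval, from how its counts divide between the pools. These intervals cover counting error only. A difference is called here from 1.5 times, with at least 50 counts in the compared pools together. Spots were sorted by scores over marker lists without clock genes. The tumour list held mostly proliferation genes, such as Mki67 and Top2a, with Krt8 and Krt18. Over the whole sections its sum was 5.06 CP10k in the metastatic and 5.20 in the control section, though 8 of 11 genes with enough counts were higher in the metastatic section. Airway-rich spots numbered 221 in the control and 79 in the metastatic section, alveolar-rich spots 961 and 351, and tumour-rich spots 81, with 202 margin spots within 200 µm of these. All 11 airway and all 13 alveolar markers were higher in their own class in either section, and all 12 tumour markers were higher in tumour-rich than in alveolar-rich spots. The same lists set the classes, so this was largely fixed by the sorting and is no independent check of them. Of the array barcodes, 858 lay over tissue in both sections, which use the same barcode layout.

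Over the whole sections, Arntl was at least 1.5 times higher in the metastatic lung, and 4 of the 8 output genes (Nr1d1, Dbp, Per1 and Per3) were at least 1.5 times lower. Of all 13792 genes with enough counts, 11.8% were that much lower and 8.96% that much higher, the latter the background for Arntl. Nr1d2, Tef, Ciart and Per2 stayed within 1.5 times. The positive arm of the loop was sparsely detected: Arntl had 62 counts in the metastatic section (0.0423 CP10k, 0.0324 to 0.0542) and 44 in the control (0.0216, 0.0157 to 0.0291). Its ratio, metastatic over control, was 1.95 (1.31 to 2.95), a log2 ratio of 0.97. With every spot thinned to 5000 counts the log2 ratio was 0.75 with an interval from -0.34 to 1.86, so the difference was then not beyond counting error. Arntl was found in 5.59% of metastatic and 2.01% of control spots.

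Of the repressors of Arntl, Nr1d1 stood at 1.22 CP10k in the control section (2476 counts) and 0.669 in the metastatic section (981 counts), a ratio of 0.550 (0.510 to 0.592). Nr1d2 stood at 0.999 and 0.720 CP10k, with a ratio of 0.720 (0.668 to 0.776). The ratio of Nr1d1 was past the fold and that of Nr1d2 was not.

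Among the D-box activators, Dbp had the lowest ratio of the 9 members. It stood at 2.58 CP10k in the control (5251 counts) and 1.28 in the metastatic section (1877 counts), a ratio of 0.496 (0.470 to 0.523). Tef, its relative, stood at 2.61 and 1.95 CP10k, with a ratio of 0.748 (0.715 to 0.783).

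The Per genes, which encode the inhibitors of the loop, did not go one way. Per1 had 1.68 CP10k in the control and 0.888 in the metastatic section (ratio 0.529, 0.496 to 0.564), and Per3 had 0.825 and 0.506 (0.613, 0.562 to 0.669). Per2 had 640 and 553 counts, 0.315 and 0.377 CP10k, and was slightly higher in the metastatic section (1.20, 1.07 to 1.35). Ciart, a further repressor of the ARNTL pair, had 321 and 185 counts, with a ratio of 0.799 (0.663 to 0.961).

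No output gene was at least 1.5 times higher. The median ratio over all tested genes was 0.952, and the median over the 8 output genes was 0.665. Dbp lay below all but 3.89% of the tested genes, Per1 below all but 4.95%, and Nr1d1 below all but 5.56%. Summed, the 8 genes reached 10.4 CP10k in the control and 6.52 in the metastatic section (ratio 0.628, 0.613 to 0.643). The median spot had 11.6 CP10k (quartiles 7.529 and 15.31) in the control and 7.07 (3.902 and 10.19) in the metastatic section, so the middle ranges of spots overlapped. The makeup of the sections differed as well. Alveolar-rich spots, where the output genes were high, were 961 of 1888 control and 351 of 1110 metastatic spots. The alveolar list was at 180.1 CP10k in the metastatic and 317.3 in the control section, the cardiac muscle list at 0.452 and 27.1, and the neutrophil list at 21.1 and 2.30, and their part in the whole-section ratios was not tested.

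**Figure D1:**
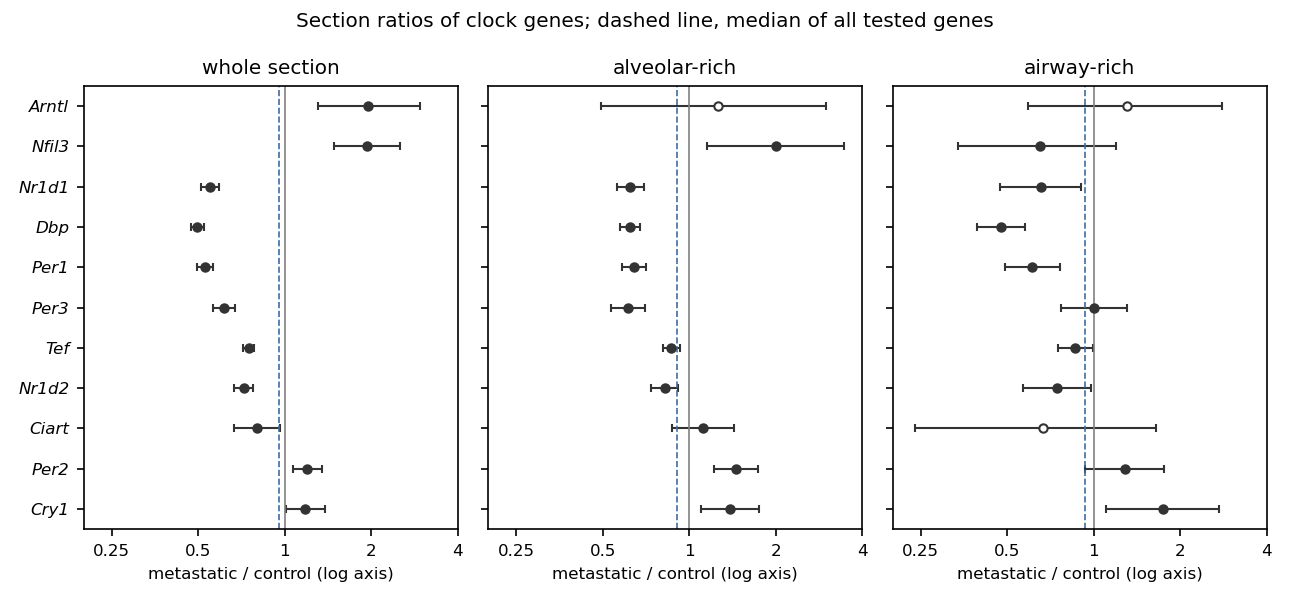
Ratio of each clock gene, metastatic over control section, on a log axis, with 95% binomial intervals as bars; open points have under 50 counts. From top to bottom the genes follow their usual order of phase. In the whole section Arntl is at 1.95, Dbp at 0.496 and Per2 at 1.20; the dashed lines mark the median of all tested genes.

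Arntl and the sum of the output genes thus differed in opposite directions over the whole sections, while Per2, one of those genes, was on the side of Arntl. The ratio of the summed output genes to Arntl, which does not depend on the library size, was 480 in the control and 154 in the metastatic section. This is a log2 difference of -1.64 (-2.23 to -1.06), or 3.11 times. It was -1.98 (-2.58 to -1.39) for Dbp over Arntl, -1.83 (-2.43 to -1.24) for Nr1d1 over Arntl and -1.64 (-2.23 to -1.05) for the summed Per genes over Arntl. Without tumour-rich and margin spots, an alternative chosen after seeing the data, it was -1.26 (-1.92 to -0.60). Arntl then had 39 metastatic counts and a ratio of 1.69 (1.07 to 2.66), and Dbp a ratio of 0.568 (0.537 to 0.601). In the spots of no class (428 control and 377 metastatic), the 8 output genes stayed within 1.5 times and their sum had a ratio of 0.871 (0.827 to 0.918). The share of all genes past the fold was not taken for these spots, so no background stands beside this. Per1 (0.685, 0.597 to 0.787), Dbp (0.732, 0.654 to 0.818) and Per3 (0.767, 0.637 to 0.923) were lower there beyond counting error, Per2 was higher (1.28, 1.01 to 1.64), and the intervals of Nr1d1 (0.890), Nr1d2 (0.917), Ciart (0.921) and Tef (1.08) covered 1. Arntl had 17 metastatic and 5 control counts in these spots. A list of 4 red blood cell markers was at 2079.3 CP10k in the control and 647.5 in the metastatic spots of no class. The club cell transcript Scgb1a1 made up 13.4% and 24.2% of their counts. Such transcripts enter the total of every gene, and their part in these ratios was not tested.

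In alveolar-rich spots, where gas exchange tissue dominates, Nr1d1, Dbp, Per1 and Per3 were lower in the metastatic section and Per2 was higher. Dbp stood at 3.27 CP10k in the control (3.15 to 3.38) and 2.03 in the metastatic section (1.90 to 2.18), a ratio of 0.623 (0.576 to 0.673). Nr1d1 stood at 1.73 and 1.08 CP10k (ratio 0.623, 0.559 to 0.694), Per1 at 2.14 and 1.37 (0.641, 0.582 to 0.705) and Per3 at 1.08 and 0.664 (0.612, 0.533 to 0.701). Nr1d2 (0.821, 0.734 to 0.917) and Tef (0.867, 0.810 to 0.927) were nearer to the control. Ciart did not differ beyond counting error (1.12, 0.872 to 1.43).

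Per2 went the other way there. It had 0.353 CP10k in control alveolar-rich spots (0.316 to 0.393) and 0.513 in metastatic ones (0.445 to 0.589), a ratio of 1.45 (1.22 to 1.74) that lay above 95.75% of the tested genes. A Per2 count was found in 28.1% of control and 42.2% of metastatic alveolar-rich spots. Again 4 of 8 output genes were at least 1.5 times lower and none higher, against 10.0% lower and 3.64% higher among 11981 tested genes, whose median ratio was 0.904. Arntl had 17 control and 9 metastatic counts, and its ratio of 1.26 had an interval from 0.494 to 2.98, so no difference was detectable at this depth. The output genes over Arntl gave a log2 difference of -0.77 (-2.02 to 0.58), which covers 0.

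The cell makeup of these alveolar-rich spots differed between the sections. The 13 alveolar markers had a median ratio of 0.907, close to that of all genes, but their summed level was 307 CP10k in the metastatic and 444 in the control section. All 7 neutrophil markers with enough counts were higher in the metastatic section (35.4 against 2.91 CP10k summed), as were all 4 red blood cell markers (590 against 206) and all 7 macrophage and monocyte markers (3.99 against 1.99). In spots, fewer cells of a type and less RNA per cell cannot be told apart, and the part of these cells in the clock gene ratios was not tested. Per2 and Dbp were read from the same spots, and their ratio to each other was 0.252 in the metastatic and 0.108 in the control section, 2.33 times, with a log2 difference of 1.22 and an interval above 0. With alveolar-rich spots over 500 µm from any tumour-rich spot (239 spots, chosen after seeing the data), the log2 ratios kept their signs for all 8 output genes.

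Airway-rich spots hold the club and ciliated cells of the bronchi. Here Dbp was lower again, with 1.27 CP10k in the control (540 counts) and 0.609 in the metastatic section (135 counts), a ratio of 0.477 (0.392 to 0.578). Per1 (0.810 and 0.496 CP10k; 0.612, 0.490 to 0.761) and Nr1d1 (0.356 and 0.234 CP10k; 0.658, 0.470 to 0.907) also passed the fold. Nr1d2 had a ratio of 0.748 (0.566 to 0.980) and Tef of 0.864 (0.749 to 0.995), and both of these lost their direction when every spot was thinned to 5000 counts. Per2 (1.29, 0.936 to 1.76) and Per3 (1.00, 0.770 to 1.31) did not differ beyond counting error, and Ciart had 20 and 7 counts, under the count limit. Arntl had 19 control and 13 metastatic counts, with a ratio of 1.31 (0.593 to 2.79). The output genes over Arntl gave a log2 difference of -0.84 (-1.94 to 0.31), which covers 0.

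Of 7 output genes with enough counts in airway-rich spots, 3 were at least 1.5 times lower and none higher, against 14.0% lower and 4.28% higher among 8694 tested genes. The count fell to 1 with abundant genes left out of the totals, with thinning and with the top 5% of airway spots, and Dbp was still past the fold each time. The airway list itself was lower in these spots of the metastatic section (57.7 against 141.5 CP10k, 10 of 11 genes), with single ratios from 0.0154 to 1.04. The smooth muscle list (5.26 against 18.1, 6 of 6) and the cardiac muscle list (1.11 against 20.25, 6 of 6) were lower too. Dbp stood at 3.29 CP10k in control spots rich in muscle markers, and the part of these lists was not tested. Scgb1a1, the main club cell transcript, made up 47.0% of the control and 54.1% of the metastatic counts in airway-rich spots, which enters the total of every gene.

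For Arntl, Nr1d1, Nr1d2, Tef, Per1, Per2 and Ciart the section ratios did not differ between airway-rich and alveolar-rich spots beyond counting error. The summed output genes had a log2 difference between the compartments of -0.01 (-0.13 to 0.12). The exceptions were Per3, whose section log2 ratio was 0.01 in airway-rich and -0.71 in alveolar-rich spots (difference 0.72, 0.30 to 1.13), and Dbp, with -1.07 and -0.68 (difference -0.38, -0.68 to -0.09). The cell makeup of these spots differed between the sections, and its part in these differences was not tested.

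**Figure D2:**
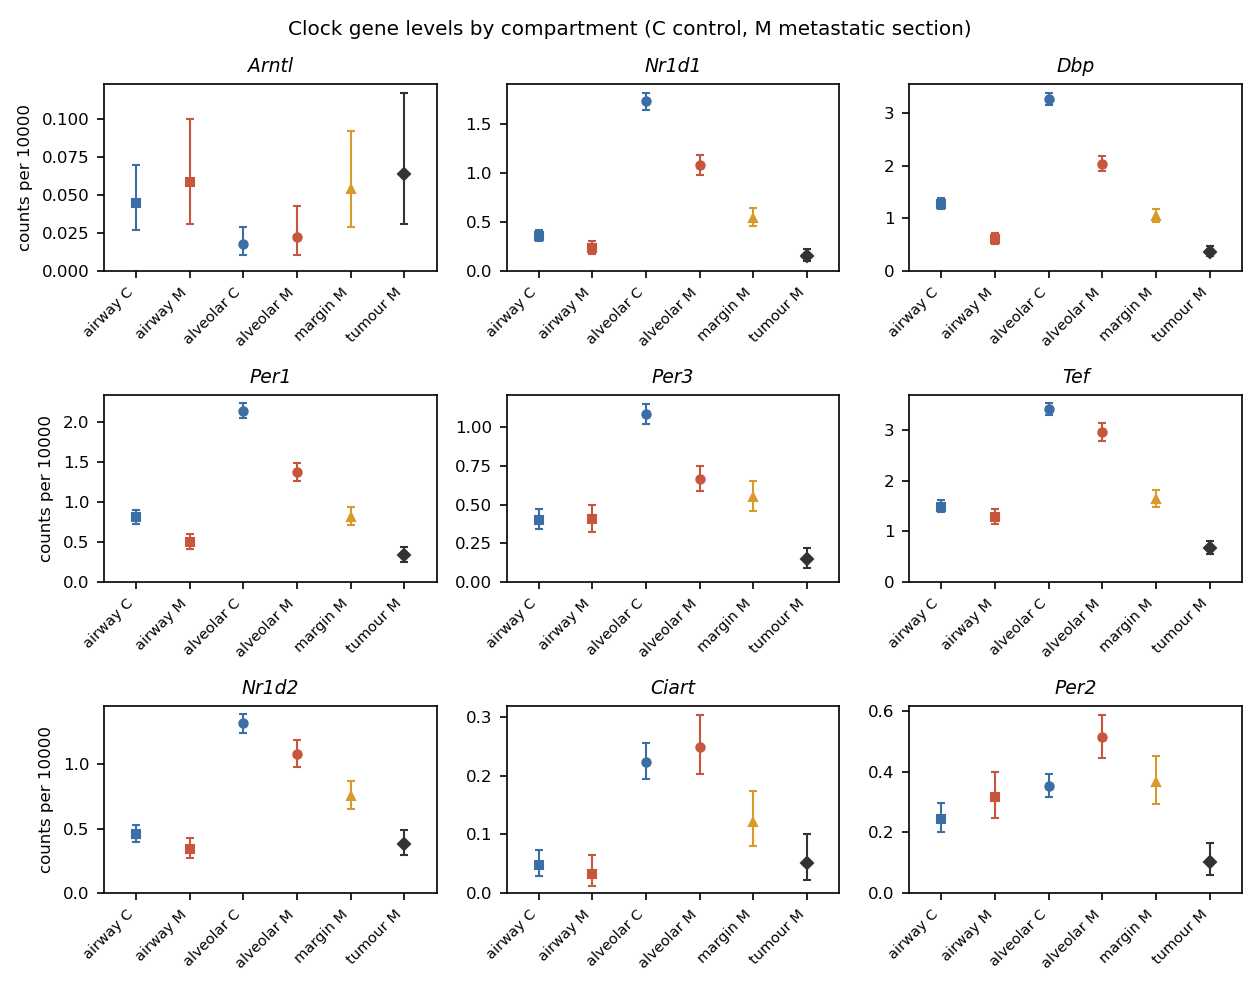
Level of each clock gene in counts per 10000 (axes start at 0) in airway-rich, alveolar-rich, margin and tumour-rich spots of the control (C) and metastatic (M) section, with exact 95% Poisson intervals as bars. Dbp is at 3.27 in control and 2.03 in metastatic alveolar-rich spots and at 0.364 in tumour-rich spots, while Per2 is at 0.353, 0.513 and 0.102.

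The later genes of the cycle were compared with the earlier ones within each section, which removes the library size. Per2 over Per1 was 0.188 in the control and 0.425 in the metastatic section, 2.27 times (log2 1.18, 0.99 to 1.37). The same log2 difference was 1.18 (0.89 to 1.47) in alveolar-rich and 1.07 (0.51 to 1.63) in airway-rich spots. Per2 over Dbp gave 1.27, 1.22 and 1.43 in the same order. Tef over Dbp gave 0.59 (0.49 to 0.69), 0.48 (0.33 to 0.63) and 0.86 (0.51 to 1.21). Every one of these intervals lay above 0. They restate section ratios already given: over the whole sections the log2 ratio was -1.01 for Dbp and -0.92 for Per1, against a median of -0.07 over all tested genes. A gene at that median would also be higher relative to Dbp or Per1. These differences, and that of Cry1 over Dbp below, are therefore not a separate result on the order of phase.

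Cry1, a repressor whose transcript peaks last, was past the fold only in airway-rich spots among these 3 comparisons. It had a ratio of 1.18 (1.01 to 1.38) over the whole sections, 1.39 (1.10 to 1.75) in alveolar-rich and 1.74 (1.10 to 2.73) in airway-rich spots. Cry1 over Dbp was 0.0651 in the control and 0.155 in the metastatic section, 2.38 times (log2 1.25, 1.01 to 1.49), with 1.16 (0.80 to 1.51) and 1.86 (1.14 to 2.57) in the compartments. With Arntl, Npas2 and Cry1 together as the opposite arm, the output genes gave -1.00 (-1.21 to -0.79) over the whole sections, -0.91 (-1.23 to -0.58) in alveolar-rich and -1.15 (-1.67 to -0.63) in airway-rich spots. Cry1 makes up most of this arm, with 291 of its 371 metastatic counts, so these values largely restate section ratios already given. With Arntl alone as the opposite arm, the intervals covered 0 in alveolar-rich and in airway-rich spots.

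Of 21 other clock genes, 18 had enough counts over the whole sections. Of these, 2 were past the fold on the lower and 2 on the higher side. Among all 13792 tested genes 11.8% were lower and 8.96% higher, so these counts are near the background. Hlf, a relative of Dbp and Tef (0.648, 0.550 to 0.762), and Usp2, a rhythmic deubiquitinase (0.616, 0.534 to 0.708), were past the fold on the lower side. Nfil3, the D-box repressor that cycles with Arntl (1.93, 1.48 to 2.52), and Nampt, a rhythmic enzyme of NAD synthesis (1.62, 1.47 to 1.79), were past it on the higher side. The median ratio of the 18 was 1.00. Clock, which scarcely cycles in most tissues, had a ratio of 0.973 (0.818 to 1.15), and Npas2 had 23 and 18 counts, under the limit. In alveolar-rich spots Nfil3 had a ratio of 2.00 (1.16 to 3.45) and in airway-rich spots 0.651 (0.337 to 1.19). Its log2 ratios differed between the compartments by -1.62 (-2.74 to -0.50).

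Per1 is also induced by glucocorticoids and by rapid cAMP signals, so genes that share these inputs were read beside it. Of 6 glucocorticoid-responsive genes 5 had enough counts, and Fkbp5 was 3.13 times as high in the metastatic section (2.63 to 3.74) and 2.07 times in alveolar-rich spots (1.55 to 2.78). Its highest level was in tumour-rich spots (0.716 CP10k), and in airway-rich spots its 14 and 29 counts gave a ratio of 0.922 (0.450 to 1.80). Tsc22d3 (1.07), Klf9 (0.908), Sgk1 (0.869) and Ddit4 (0.931) were within the fold over the whole sections, and in alveolar-rich spots Ddit4 was past it on the lower side (0.562, 0.424 to 0.736). Of 8 immediate early genes, Fosb (0.498), Nr4a1 (0.554) and Egr1 (0.603) were past the fold on the lower side and Junb (2.52) on the higher. In airway-rich spots Fosb had 50 control and 2 metastatic counts. Neither list went one way, and their part in the level of Per1 was not tested.

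Inside the metastatic section, tumour-rich spots had the lowest summed level of the output genes of all pools (2.22 CP10k), though Nr1d2 and Ciart had lower levels in airway-rich spots (0.343 and 0.0316 CP10k, against 0.384 and 0.0511). Dbp had 57 counts there (0.364 CP10k, 0.276 to 0.472) against 2.03 CP10k in alveolar-rich spots of the same library, a ratio of 0.179 (0.134 to 0.234). The ratios of the others ran from 0.143 for Nr1d1 (0.0903 to 0.215) to 0.354 for Nr1d2 (0.265 to 0.464), with Per2 at 0.199 (0.112 to 0.332). All 8 output genes were thus at least 1.5 times lower, against 29.0% lower and 25.8% higher among 10126 tested genes, and their median ratio was 0.213. Cry1 was lower too (0.348, 0.192 to 0.589), unlike in the comparison of the sections.

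Arntl in tumour-rich spots had 10 counts (0.0639 CP10k, 0.0307 to 0.118) against 9 in alveolar-rich spots (0.0226, 0.0104 to 0.0430). Its ratio of 2.82 (1.03 to 7.86) rests on fewer than the 50 counts asked for, and Nfil3 had a ratio of 2.35 (1.31 to 4.21). The output genes over Arntl were 34.7 in tumour-rich and 440 in alveolar-rich spots, a log2 difference of -3.66 (-5.15 to -2.20). Over the alternatives this value ranged from -5.59, with thinned spots, to -1.21, with Npas2 and Cry1 added to Arntl. The 81 spots formed 14 connected groups, of which 10 were single spots, and the margin and distances below were taken from all of them. The largest connected group held 60 of the 81 spots, with 9 of the 10 Arntl counts and 1.87 CP10k of the output genes (1.64 to 2.12). The alveolar list was at 54.05 CP10k in tumour-rich and 307 in alveolar-rich spots and the macrophage and monocyte list at 15.0 and 3.99, and tissue and state of the clock cannot be told apart in this comparison.

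Margin spots lay between tumour-rich and alveolar-rich spots in the summed level. Of the 8 output genes, 5 were at least 1.5 times lower than in alveolar-rich spots, against 14.7% lower and 16.9% higher among 10443 tested genes. Ciart (0.484, 0.308 to 0.738), Nr1d1 (0.505, 0.412 to 0.616), Dbp (0.514, 0.445 to 0.593), Tef (0.556, 0.495 to 0.624) and Per1 (0.596, 0.504 to 0.702) were those 5, and Per3 did not differ beyond counting error (0.826, 0.665 to 1.02). Of the 202 margin spots, 75 fell into the tumour cluster of a k-means clustering, and with that cluster as tumour only 2 of 8 genes were past the fold at the margin. Against the spots of no class in the same section, the output genes at the margin ran from 0.7175 for Nr1d1 to 1.279 for Ciart, within the fold. Their sum had a ratio of 0.8815 (0.8263 to 0.9401). The share of all genes past the fold was not taken for this comparison. The totals of these pools were unlike, since Scgb1a1 made up 5.82% of margin counts and 24.2% of counts in spots of no class. The red blood cell list was at 151.4 and 647.5 CP10k. Such transcripts enter the level of every gene, and their part in this ratio was not tested. The alveolar list was at 164.7 CP10k in margin and 307 in alveolar-rich spots and the macrophage and monocyte list at 10.2 and 3.99, and their part was not tested.

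By distance from the nearest tumour-rich spot, the summed output genes stood at 2.22 CP10k in the tumour (1.99 to 2.46), 5.85 up to 200 µm (5.54 to 6.16), 8.08 from 200 to 500 µm, 8.52 from 500 to 1000 µm (8.23 to 8.80) and 7.73 beyond (7.25 to 8.24). Airway-rich spots were left out of these rings. Beyond 200 µm the level lay between 7.73 and 8.52, below the 10.4 CP10k of the whole control section. The control values given here include the 221 airway-rich spots, whose summed level was 5.09 CP10k, so the compared pools are not alike. Dbp stood at 1.81 CP10k beyond 1000 µm (1.58 to 2.07) and Per1 at 0.946 (0.782 to 1.13), against 2.58 and 1.68 in the whole control section. Arntl had 2 counts in that outermost ring.

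**Figure D3:**
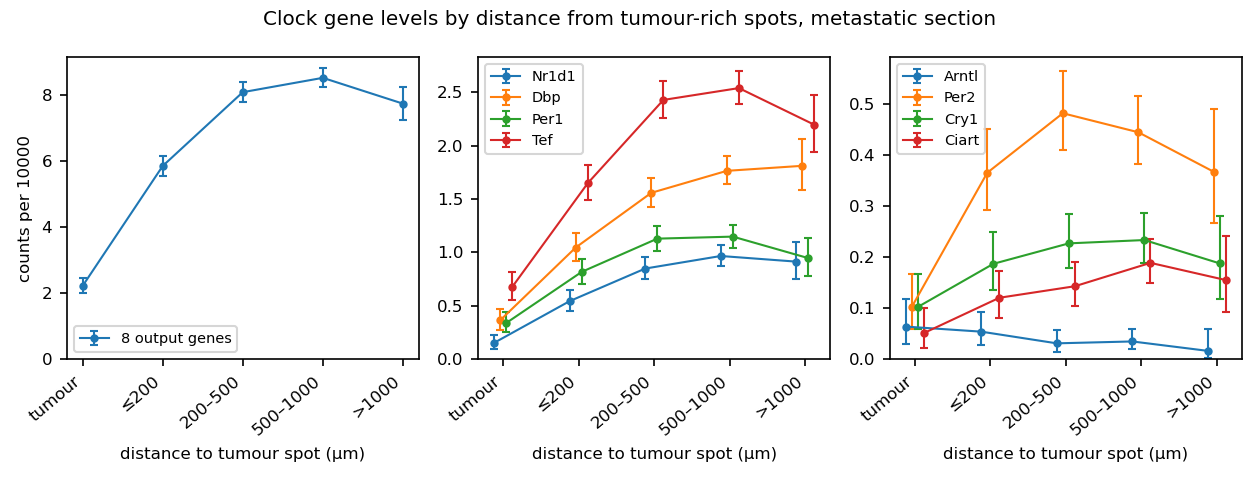
Levels in the metastatic section by distance from the nearest tumour-rich spot in µm, in counts per 10000 (axes start at 0), with exact 95% Poisson intervals; left, the 8 output genes summed; middle, Nr1d1, Dbp, Per1 and Tef; right, Arntl, Per2, Cry1 and Ciart. The sum is 2.22 in tumour-rich spots, 5.85 up to 200 µm and 8.52 from 500 to 1000 µm. Airway-rich spots are left out.

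Across the pools of either section each gene had its own order. Dbp was highest in muscle-rich (3.29 CP10k), alveolar-rich (3.27) and lymphoid-rich spots (3.17) of the control, whose intervals overlapped. The metastatic muscle-rich (2.13, 23 counts), alveolar-rich (2.03) and lymphoid-rich spots (2.00, 27 counts) came next and overlapped with the remaining control spots (1.85). Below them lay the remaining metastatic spots (1.35) and control airway-rich spots (1.27), with overlapping intervals, the margin (1.05), metastatic airway-rich spots (0.609) and the tumour (0.364). The last 3 did not overlap with each other. For Arntl the levels ran from 0.0639 CP10k in the tumour, 0.0586 in metastatic and 0.0448 in control airway-rich spots to 0.0180 in control alveolar-rich, 0.0131 in the remaining control and 0.00507 in control muscle-rich spots, where it had 1 count. It had 0 counts in the 8 muscle-rich and 12 lymphoid-rich metastatic spots, which allows up to 0.278 and 0.222 CP10k. All neighbours in this order had overlapping intervals. In airway-rich over alveolar-rich spots Arntl was 2.49 times as high in the control (1.23 to 5.10) and 2.59 times in the metastatic section (1.02 to 6.86). The median of all genes was 0.459 and 0.475 in these comparisons, since Scgb1a1 takes up so many airway counts. The median of the output genes was 0.375 and 0.338.

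**Figure D4:**
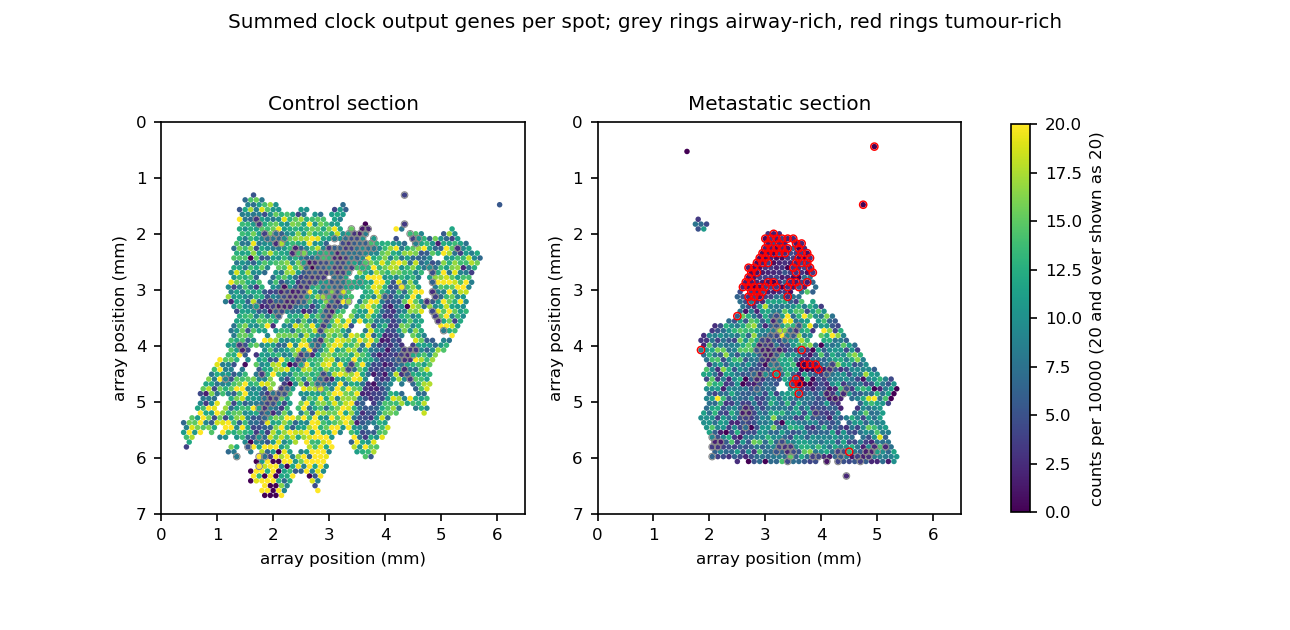
Spots of the control and metastatic section at their array positions in mm, coloured by the summed counts per 10000 of the 8 output genes; grey rings mark airway-rich and red rings tumour-rich spots. The median spot has 11.6 in the control and 7.07 in the metastatic section, and tumour-rich spots have a median of 1.94; dots apart from the tissue are detached spots of the files.

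Over 8 pools, control airway-rich, alveolar-rich and rest and metastatic airway-rich, alveolar-rich, margin, tumour-rich and rest, the level of Dbp was most like those of Tuba8 (Pearson r = 0.997), Stom (0.993), Per1 (0.992), Lamb2 (0.991) and Col4a5 (0.991). This was across 11138 genes, of which 129 had r over 0.95, so such likeness was not rare. For Arntl the nearest were Dpy30 (0.920), Ddt (0.913), Mgst2 (0.912), Bok (0.900) and Phtf1 (0.898). Between the members, r with Dbp was 0.964 for Nr1d1, 0.720 for Per2 and -0.847 for Arntl. The compared genes had at least 200 counts in the sections together, but Arntl had only 44 in the control and 62 in the metastatic section. In these pools it had from 5 to 19 counts, so its r values carry much counting error. The pools share 2 libraries, their depth and their composition, so these values are descriptions.

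Reads of some members could be shared with a neighbour. Nr1d1 overlaps Thra on the opposite strand (1421 counts in the control and 793 in the metastatic section), Dbp overlaps Sphk2 (562 and 433), and Ciart, Tef and Arntl each overlap an antisense gene. Per3 overlaps Camta1 on the same strand (489 and 372). How the counting used strand is not given in the sources used here.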

How the data were processed

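Fresh-frozen sections of 1 control and 1 metastatic lung were processed on the Visium platform, and the authors deposited unnormalized molecule counts for every gene in every spot. The submitters' processing notes name Space Ranger 1.3.1 and mm10. Spot totals ranged from 237 to 83152 in the control and from 162 to 77512 in the metastatic section.

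Counts were pooled per section and compartment, divided by the pool's total and multiplied by 10000. Each spot was scored as the mean standardized log level of a marker list, and percentiles were taken over the spots of both sections together: airway-rich (top 10%), muscle-rich by a cardiac or a smooth muscle list (top 5% each), lymphoid-rich (top 5%) and alveolar-rich (top 50%). Tumour-rich spots were metastatic spots above percentile 99.5 of the control spots, and the margin was within 200 µm of them. Where classes met, airway came first, then tumour, margin, muscle, lymphoid and alveolar. Intervals are exact Poisson (levels), exact binomial (ratios) and conditional odds-ratio intervals (contrasts between genes), all at 95%. Background ratios over all genes used a pseudocount of 0.5 counts and at least 50 counts. No doublet caller applies to spots. The ratio and interval functions were tested on simulated data. The scripts ran under Python 3.11.15 with scipy 1.17.1 for intervals, scikit-learn 1.9.0 for k-means, and pandas 2.3.3, matplotlib 3.10.9 and numpy 2.4.6. The members, gene lists and comparisons were chosen with earlier results of these data known. Genes named beside the 9 members were opposite-phase partners and other clock genes past the fold, a glucocorticoid-responsive and an immediate early list, and the 5 genes most like Arntl and Dbp in level.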

Additional observations from a re-analysis of the deposited data

How the results depend on the processing

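Over the whole sections the direction of each of the 9 members was the same under all 6 alternatives, with log2 ratios from 0.53 to 0.99 for Arntl, -1.01 to -0.82 for Dbp and 0.26 to 0.42 for Per2, and 4 output genes were past the fold under each. When every spot was thinned to 5000 counts (1526 control and 1028 metastatic spots kept), Arntl was at 0.75 with an interval from -0.34 to 1.86, which covers 0. The output genes over Arntl gave -0.79 over the whole sections with Npas2 and Clock added to Arntl and -1.00 with Npas2 and Cry1 added. For tumour-rich over alveolar-rich spots the same settings gave -2.01 and -1.21, and thinning gave -5.59. For the margin the contrast was -0.35 with Npas2 and Cry1 added, with an interval that covers 0, and -3.51 with tumour spots taken only above the highest control spot (9 spots). In alveolar-rich spots the contrast ranged from -1.07 to 0.43, and thinning gave the positive value.

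The count of output genes at least 1.5 times lower went from 3 to 1 in airway-rich spots with totals without abundant genes, with thinning and with the top 5% of spots, and from 4 to 2 in alveolar-rich spots with the top 25% of spots by the alveolar score. At the margin it went from 5 to 8 with tumour spots above the highest control spot or in the largest group only, and to 2 with the k-means cluster. In airway-rich spots Nr1d2 turned to 0.11 with thinning and 0.07 with the top 5% of spots, and Tef to 0.02 with thinning (log2). The cause of these changes was not tested. Of the single gene ratios under alternatives, 351 stayed within the interval of the reported value and 49 moved outside it. The other 3, the changes of Nr1d2 and Tef in airway-rich spots just given, were the changes of sign among ratios whose reported interval excluded 1. Among ratios whose interval covered 1, the log2 value changed sign for Arntl in alveolar-rich spots (-0.89, thinned), for Per2 (-0.20) and Ciart (0.21) in airway-rich spots with the top 5%, for Per3 in airway-rich spots with the top 20% (-0.22), and for Per3 at the margin with the k-means cluster (0.01), where thinning gave 0.00. Between a minimum of 10 and of 200 counts, the share of all genes at least 1.5 times lower was 15.4% and 8.52%, and the share higher 10.6% and 6.80%.

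No paired analysis was possible because each condition has 1 section, and there was no replicate to leave out. Arntl had 9 to 19 counts in the airway-rich and alveolar-rich pools, and its section ratios there had intervals that cover 1.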
